A study of Mus musculus with 19 samples.

Results

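The interferon response was examined in astrocytes sorted from the mouse hippocampus, through 41 genes that comprise the 4 subunits of the type I and type II interferon receptors and 37 genes of the interferon response. Members were taken from a list of symbols and found by symbol among the 60567 genes of the deposited values, each on 1 entry. They were grouped by role into receptors (4 genes), interferon regulatory factors (4), RNA sensors and the kinase PKR (3), antiviral effectors (8), membrane restriction factors (3), the ISG15 and TRIM genes (4), interferon-inducible GTPases (6) and other induced genes (9). The choice of genes used no measured value, but it was made with earlier results of these data known.

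Type I interferons bind the receptor formed by IFNAR1 and IFNAR2, and interferon gamma binds the receptor formed by IFNGR1 and IFNGR2. Both act through JAK kinases and STAT proteins, which carry the signal to interferon-stimulated response elements (ISRE) and gamma-activated sites (GAS) in the promoters of target genes, and the interferon regulatory factors (IRF) act with them. Microglia and endothelial cells are strong responders in the brain, and astrocytes can respond too. SOCS3 is an intracellular inhibitor of JAK-STAT signalling, best known for acting on receptors that activate STAT3.

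The data were RNA sequencing of cells sorted by GFP fluorescence from hippocampi of 9 month-old male mice, with 19 samples in 4 groups. WT-GFP mice were wild type C57bl6 littermates, and APP-GFP and APP-SOCS3 mice were of a transgenic amyloid model that carries, among its transgenes, a chimeric mouse/human App with the Swedish mutation. All mice had received adeno-associated viral vectors of serotype 2/9 with the astrocyte promoter gfaABC1D in the CA1 region as young adults. WT-GFP and APP-GFP mice received a GFP vector alone. APP-SOCS3 mice received a vector of murine SOCS3 together with a separate GFP vector, at the same total dose of virus. Cells were sorted on GFP, and how many of the sorted cells carried the SOCS3 vector cannot be told from these values. Samples of GFP+ astrocytes numbered 7 in WT-GFP, 4 in APP-GFP and 5 in APP-SOCS3 mice. GFP- cells gave 3 samples, all from WT-GFP mice, and hold every other collected cell type together, astrocytes without GFP included. There was no wild type group with SOCS3 and no group without a vector. The study counts the samples of GFP+ astrocytes as mice. Its methods also say that both hippocampi of a mouse were sorted separately, and the labels tie no sample to a mouse. All samples were treated as independent replicates here, and whether some share a mouse cannot be told. Whether the GFP- samples came from the same mice as some of the GFP+ samples is not stated, and the comparison of both fractions treats them as separate.

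Reads counted on genes ranged from 19331876 to 32621917 per sample, and a single read equalled 0.756 to 1.18 on the normalized scale. In 4 libraries of GFP+ cells, namely WT-GFP replicates 1, 2 and 3 and APP-GFP replicate 2, under 20000 genes had a read, and results were also computed without them. Socs3, the transferred gene, had a normalized level of 14488, 37750.1, 13296, 15732 and 16050.4 in the 5 APP-SOCS3 samples. It was at 1148, 438, 1639 and 1089.8 in APP-GFP samples, between 458 and 1208 in the 7 WT-GFP samples, and at 15824, 10319.7 and 17689 in GFP- cells. Reads of the vector's Socs3 and of the mouse gene cannot be told apart in these values. In WT-GFP mice all 15 astrocyte markers were higher in the GFP+ fraction than in the GFP- fraction. Markers of other cells were nevertheless detected in GFP+ samples, as given below beside the results.

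The promoters below show how the members differ in the element through which type I interferon acts. Gbp2 and Ifitm3 are shown as genes that were lower with SOCS3 and hold the element. Other genes lower with SOCS3 did not show it. Ifnar2 and Ifit2 had no ISRE core in their windows, and Iigp1 had no window. Sp100 had no ISRE core either, and was called lower only against WT-GFP, where genotype and vector both differ. Isg15 and Irgm1 are shown as an antiviral protein and a GTPase with several elements. Irf3 and Lgals3bp are shown because their levels in GFP+ astrocytes were not below those of GFP- cells. Sequences are from RefSeq on GRCm38.p6, 5′ to 3′ on the strand of the gene, from 170 bases before the transcription start to 30 bases from it. Capitals mark each match to the ISRE core GAAANNGAAA on either strand.
Gbp2 (chr3:142620493-142620692, plus strand): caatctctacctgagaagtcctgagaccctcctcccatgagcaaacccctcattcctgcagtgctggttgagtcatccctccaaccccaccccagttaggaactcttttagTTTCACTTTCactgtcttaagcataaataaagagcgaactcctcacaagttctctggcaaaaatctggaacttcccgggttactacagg
Ifitm3 (chr7:141010715-141010914, minus strand): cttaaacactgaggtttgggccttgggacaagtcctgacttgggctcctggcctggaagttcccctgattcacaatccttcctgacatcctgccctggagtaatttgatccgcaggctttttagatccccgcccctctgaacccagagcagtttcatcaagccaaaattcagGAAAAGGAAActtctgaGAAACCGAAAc
Isg15 (chr4:156200789-156200988, minus strand): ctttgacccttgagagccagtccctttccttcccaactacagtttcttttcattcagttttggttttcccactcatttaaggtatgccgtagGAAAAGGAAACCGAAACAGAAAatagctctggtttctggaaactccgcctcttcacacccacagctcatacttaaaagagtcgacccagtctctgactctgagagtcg
Irgm1 (chr11:48871391-48871590, minus strand): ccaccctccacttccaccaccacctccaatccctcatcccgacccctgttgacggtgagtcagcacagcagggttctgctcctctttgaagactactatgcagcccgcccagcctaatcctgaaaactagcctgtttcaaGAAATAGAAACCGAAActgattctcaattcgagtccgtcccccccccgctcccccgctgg
Irf3 (chr7:44997478-44997677, plus strand): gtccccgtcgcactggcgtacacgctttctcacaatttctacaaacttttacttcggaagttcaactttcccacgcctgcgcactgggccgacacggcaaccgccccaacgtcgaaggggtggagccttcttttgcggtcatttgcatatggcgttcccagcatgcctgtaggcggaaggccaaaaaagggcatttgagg
Lgals3bp (chr11:118401930-118402129, minus strand): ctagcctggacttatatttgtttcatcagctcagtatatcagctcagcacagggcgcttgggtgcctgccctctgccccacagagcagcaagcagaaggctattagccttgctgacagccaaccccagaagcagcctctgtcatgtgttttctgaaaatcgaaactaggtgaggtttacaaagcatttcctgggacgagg

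The core of Gbp2 lies on the other strand and begins 59 bases before the start, and those of Ifitm3 begin at the third and the twentieth base from the start. In Isg15, 3 cores overlap from 78 bases before the start, and in Irgm1 2 cores overlap from 30 bases before it. Over windows of 300 bases (250 before the start and 50 from it), 34 of the 41 members had a RefSeq promoter, and 17 of them (50%) held an ISRE core, against 3.99% of 27025 genes with a promoter. A GAS core (TTCNNNGAA, a palindrome, so both strands are read at once) was in 11 of the 34 (32.4%), against 9.55% of genes. The 2 motifs can overlap. By role, all 5 GTPases with a window, all 3 membrane restriction factors, all 3 genes of the RNA sensors and kinase, 4 of 7 antiviral effectors and 2 of 3 ISG15 and TRIM genes held the ISRE core, and 0 of 4 receptors, 0 of 4 interferon regulatory factors and 0 of 5 other induced genes did. A match is a run of letters and not a measured binding site, and a window without one says only that these letters are absent there.

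Levels of the 41 genes were highest in GFP- cells for nearly all members, and in GFP+ astrocytes they spread widely between samples of a group. In the 3 GFP- samples every member had a read, and the median coefficient of variation over members was 17.3%. It was 63.6% in WT-GFP, 42.4% in APP-GFP and 37.7% in APP-SOCS3 astrocytes. Members with a read in all samples of the group numbered 23 in WT-GFP, 33 in APP-GFP and 33 in APP-SOCS3 astrocytes. Per GFP+ sample, 0 to 12 members were at 0. WT-GFP replicates 1, 2 and 3 had 8, 11 and 12 members at 0, and APP-GFP replicate 2 had 7, which are also the 4 libraries with few detected genes.

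**Figure D1:**
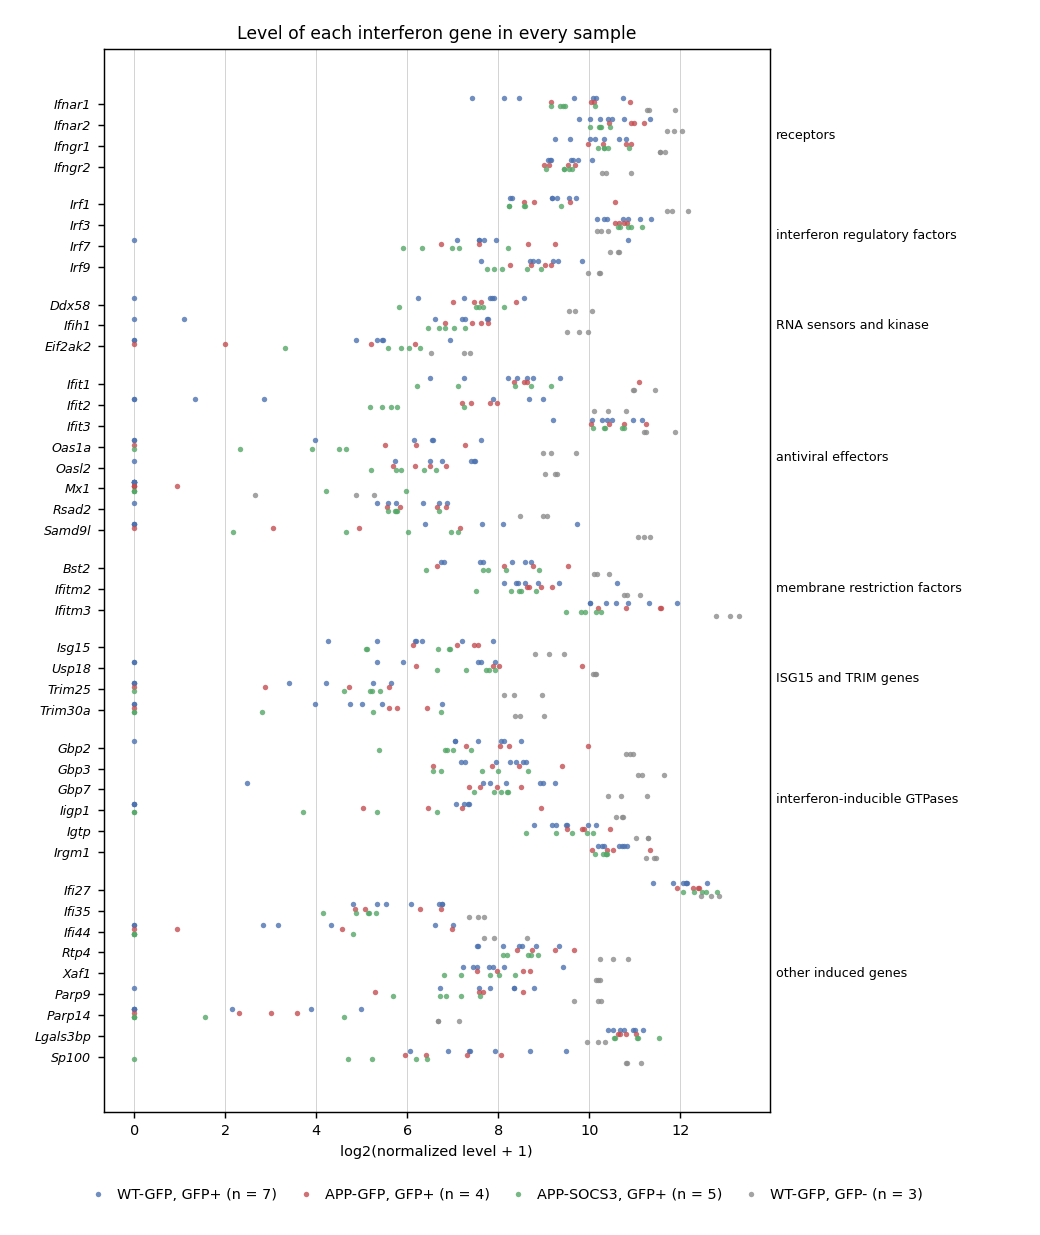
Level of each of the 41 interferon genes in every sample, as log2(normalized level + 1), with 1 point per sample and colours for the groups (GFP+ astrocytes: APP-SOCS3 n = 5, APP-GFP n = 4, WT-GFP n = 7, and 3 samples of GFP- cells). Grey points of GFP- cells lie to the right for nearly all genes, Irf3 and Lgals3bp excepted, and points at 0 occur in GFP+ astrocytes and not in GFP- cells.

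GFP+ astrocytes were compared with GFP- cells of WT-GFP mice to see how much of the interferon program is carried by astrocytes at baseline. Of the 41 members, 35 were lower in GFP+ astrocytes and 1, Lgals3bp, was higher. A gene is called here when limma on log2(level + 1) gives it p of 0.05 or less without adjustment and its levels differ 1.5-fold or more, and fold changes are on this scale. Of 26709 genes tested, 33.5% were called lower and 9.25% higher, or 42.8% in either direction. At an adjusted p under 0.05, 26 members were lower (24.5% of all genes) and 1 was higher (7.38%). The groups did not overlap for 36 members that were lower (27.2% of all genes) and for 1 that was higher (7.57%).

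The median log2 fold change was -3.04 over members and -1.31 over all genes tested. The difference of all genes from 0 moved with the method, to -0.37 with edgeR and -0.67 with DESeq2 on whole reads and to -1.50 with equal totals. The members' median was then -2.04, -2.37 and -3.19. In these 3 settings 39 of 41 members stayed below 0. Over all genes, limma called 2471 higher and 8948 lower, edgeR 3323 and 5265, and DESeq2 3173 and 5784. With a read floor of 3 reads per library in place of the fitted value of Mx1, which was at 0 in all WT-GFP samples, the members' median was -2.97.

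Receptor genes were lower in all 4 cases, with a median log2 fold change of -1.47 that is close to that of all genes. Ifnar1 and Ifnar2 encode the type I receptor and had mean levels in GFP+ astrocytes of 27.1% and 38.7% of those in GFP- cells. Ifngr1 and Ifngr2 encode the type II receptor and had 37.6% and 49.1%. Levels of Ifnar2 in WT-GFP astrocytes ranged from 872 to 2569 with a median of 1358, and were 3369, 4235 and 3707 in GFP- cells. Every GFP+ sample was thus below every GFP- sample, with a log2 fold change of -1.44 (SE 0.30, adjusted p = 0.00409).

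Among interferon regulatory factors, Irf1, an early interferon-induced factor, and Irf9, the DNA-binding subunit of a complex formed with STAT proteins, were lower, with log2 fold changes of -2.83 and -1.23. Irf3, the factor activated by nucleic acid sensors, ranged from 1158 to 2620 with a median of 1704 in WT-GFP astrocytes, and was at 1222, 1153 and 1358 in GFP- cells. Of the 7 GFP+ samples, 4 were above all GFP- samples and the groups overlapped. The log2 fold change of Irf3 was 0.43 (95% CI -0.16 to 1.02, exact permutation p = 0.15) and it was called higher with edgeR only, at 0.75. Exons of Irf3 overlap those of Bcl2l12 on the opposite strand, and reads of both cannot be told apart without strand. Irf7, an interferon-induced amplifier of type I interferon, was not called with limma but was lower with DESeq2, with 0 to 1857 over WT-GFP samples and 1403 to 1618 in GFP- cells.

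In the group of the RNA sensors and kinase, Ifih1 (MDA5) was lower with a log2 fold change of -4.36, and Ddx58 (RIG-I) at -3.25 and Eif2ak2 (PKR) at -3.04 were not called. For Ddx58 each GFP+ sample was nevertheless below each GFP- sample (exact permutation p = 0.0167, the smallest this design allows), and DESeq2 called it lower. Antiviral effectors were lower in all 8 cases, with a median of -3.95. Ifit2, which binds RNA and restrains translation, ranged from 0 to 502 with a median of 6.22 in WT-GFP astrocytes, and was at 1366, 1797 and 1095 in GFP- cells. Samd9l, an antiviral factor and growth suppressor, ranged from 0 to 853 with a median of 83.5, and was at 2137, 2369.9 and 2580.0 in GFP- cells. Neither gene overlapped between groups, while their levels in GFP+ astrocytes fell into samples at 0 or near it and samples above 83. Log2 fold changes were -6.20 (SE 2.17, adjusted p = 0.0493) for Ifit2 and -6.65 (SE 2.28, adjusted p = 0.0458) for Samd9l. With edgeR they were -2.81 and -3.32, and with neither edgeR nor DESeq2 was either gene called.

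Mx1, an antiviral GTPase, was at 0 in all 7 WT-GFP samples and at 28.3, 37.8 and 5.30 in GFP- cells, a level at least 7.83-fold lower in GFP+ astrocytes when 3 reads per library are taken as the limit. Ifit3, a partner of Ifit1 whose reads can be shared with its near copy Ifit3b, kept 49.8% of the GFP- level, and Ifit1, Oas1a, Oasl2 and Rsad2 kept 10.4% to 18.8%. Membrane restriction factors were lower in all 3 cases (Bst2 20.3%, Ifitm2 30.1%, Ifitm3 21.9% of the GFP- level). Ifitm3, which blocks fusion of virus with membranes, ranged from 1034 to 3914 with a median of 1537 in WT-GFP astrocytes and was at 7099, 10080.0 and 8707 in GFP- cells.

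ISG15 and TRIM genes were lower in all 4 cases and had the lowest median of the roles, at -5.06. Isg15, the ubiquitin-like modifier, kept 16.7% of the GFP- level and Usp18, which removes it from proteins and restrains the type I receptor, kept 9.24%. The ubiquitin ligase gene Trim25 kept 4.41% and Trim30a 7.97%. Interferon-inducible GTPases, which attack vacuoles of intracellular microbes, were lower in all 6 cases with a median of -3.23. Irgm1 kept 56.6% of the GFP- level and Igtp 31.5%, while Gbp2, Gbp3, Gbp7 and Iigp1 kept 5.27% to 18.0%. Iigp1 ranged from 0 to 163 with a median of 134 in WT-GFP astrocytes, of which 3 samples were at 0, and was at 1539, 1695 and 1706 in GFP- cells (log2 fold change -6.54, SE 2.04, adjusted p = 0.0316).

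Among the other induced genes, 7 of 9 were lower and 1 was higher. Lgals3bp, a secreted glycoprotein that binds galectins, ranged from 1355 to 2319 with a median of 1738 in WT-GFP astrocytes and was at 1167, 1297 and 994 in GFP- cells. Each GFP+ sample was above each GFP- sample, with a mean level of 156% of that in GFP- cells and a log2 fold change of 0.62 (SE 0.21, adjusted p = 0.0419, exact permutation p = 0.0167, the smallest this design allows). The call was lost in 5 of 20 alternatives, among them equal totals (0.45) and the fit without the 4 libraries with few genes (0.55). Ifi27, a small interferon-induced membrane protein, followed Lgals3bp and Irf3 in the order of log2 fold changes, at -0.62, with 2690.1 to 6163 (median 4471) in WT-GFP astrocytes and 7359, 6583 and 5583 in GFP- cells, and these groups overlapped. Sp100, a component of PML nuclear bodies, Xaf1, which promotes apoptosis, Rtp4, a chaperone of receptor transport, Ifi35, Ifi44 and the ADP-ribosyltransferase gene Parp14 were lower with log2 fold changes of -1.53 to -5.26, and Parp9 at -3.25 was not called. The groups of Parp9 did not overlap (exact permutation p = 0.0167), and DESeq2 called it lower.

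Markers of other cells moved with these differences. Of 20 microglia markers 20 were lower in GFP+ astrocytes, as were 19 of 20 endothelial, 12 of 12 mural and 7 of 8 perivascular macrophage markers. Summed levels of microglia markers in WT-GFP astrocytes were 6.71% to 24.5% of the mean in GFP- cells, and those of endothelial markers 7.51% to 24.6%, and no microglia or endothelial marker was at 0 in all 7 samples. Levels of Ifi27, Ifi35, Ifnar2, Ifngr2, Irf3, Irgm1 and Lgals3bp, as a share of the GFP- mean, were above both shares in each of the 7 samples. In all, 24 members were above both in at least 4 samples, 14 in 1 to 3 samples, and Gbp2, Mx1 and Trim25 in none. The part of microglial and endothelial RNA in the members' levels was not tested, and in bulk samples fewer cells of a type and less RNA per cell cannot be told apart.

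**Figure D2:**
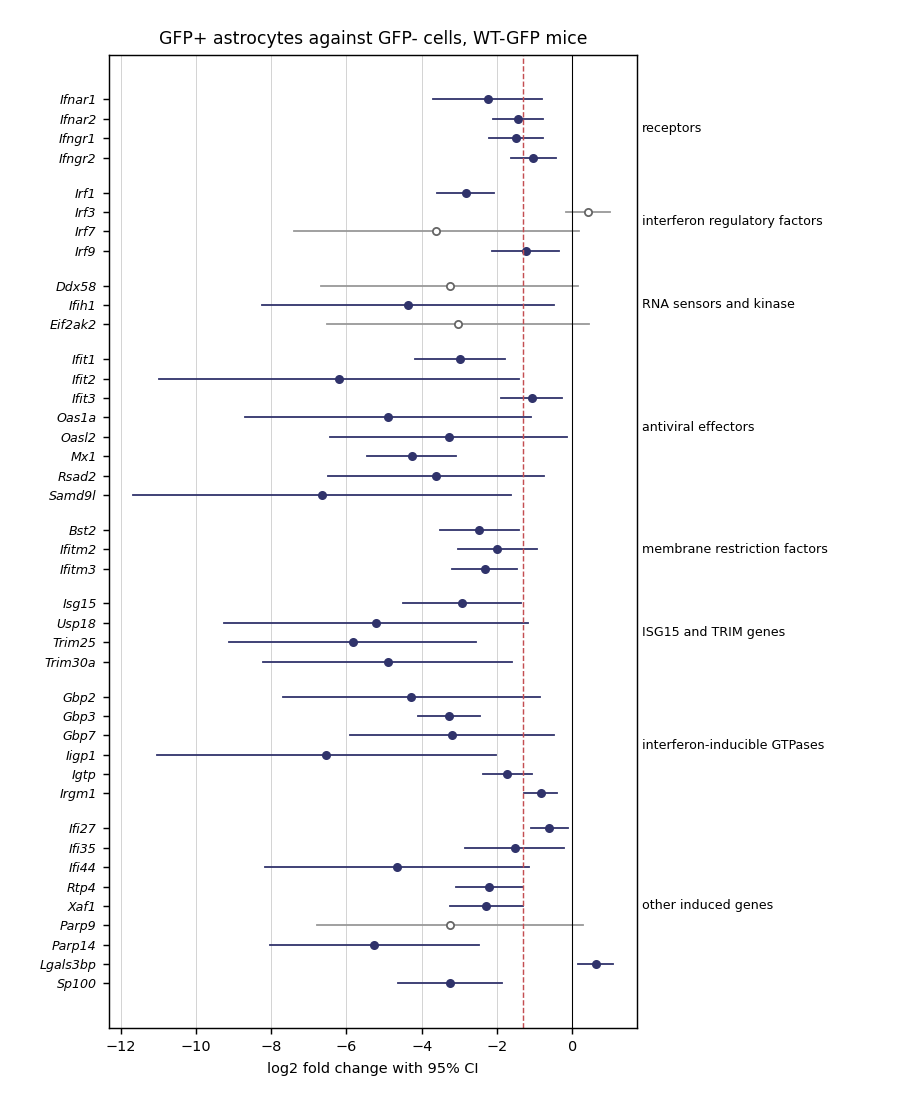
Log2 fold change of each interferon gene in WT-GFP mice, GFP+ astrocytes (n = 7) relative to GFP- cells (n = 3), with its 95% confidence interval from limma. Filled points are called genes, open points are not, and the dashed line is the median of all 26709 genes tested (-1.31). Lgals3bp lies to the right of 0 and 35 filled points lie to the left.

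APP-GFP astrocytes were compared with WT-GFP astrocytes to see whether the interferon genes differ in the amyloid model at 9 months. No member was called in either direction, of the 39 that were tested. Mx1 and Parp14 were below the minimum mean level of 10 in both groups. In this comparison 1.66% of 22969 genes were called higher and 0.57% lower (2.23% in either direction). At an adjusted p under 0.05, 0 members and 0.00435% of all genes were higher, and for 0 members did the groups separate fully, against 0.231% of genes that were apart and higher and 0.0827% apart and lower. No member had an unadjusted p under 0.05 with limma or a call with edgeR, and DESeq2 called 1, Ifit1, higher. The median log2 fold change was 0.39 over members and 0.09 over all genes, and 10 of 39 members were below 0. Over all genes, limma called 382 higher and 131 lower, edgeR 412 and 247, and DESeq2 205 and 325. Without the 4 libraries with few genes 0 of 40 members were called, with 319 genes higher and 414 lower of 23286 tested, and the members' median was 0.14, with 16 below 0.

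The intervals were narrow for members with stable levels and wide for the rest. Lgals3bp had 1587, 1637.5, 2097 and 1778 in APP-GFP astrocytes, within the range of WT-GFP astrocytes, with a log2 fold change of -0.0019 (95% CI -0.42 to 0.42). For Irf3, which had 1742.5, 1811, 1599 and 1514, the interval was -0.52 to 0.51, for Irgm1 it was -0.50 to 0.58, and for Ifi27, with 5006, 5442, 5363 and 3876, it was -0.23 to 0.65. A 2-fold difference lies outside these 4 intervals. Intervals of Ifit2 (-0.68 to 7.38), Usp18 (-0.46 to 6.62) and Iigp1 (-1.23 to 6.75), whose WT-GFP samples hold values at 0, reach beyond 6 log2 units, and for these genes large differences cannot be told from none at this spread. Levels of Ifit2 were 249.8, 167, 146 and 223 in APP-GFP astrocytes, all inside the WT-GFP range.

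APP-GFP replicate 2 was the highest of its group for 22 members, replicate 3 for 11, replicate 1 for 6 and replicate 4 for 2. Replicate 2 had 2189.7 for Ifit1, where the others had 324 to 397, 1005 for Gbp2 where the others had 157 to 299, and 490.5 for Iigp1, where the others had 31.4 to 146. In WT-GFP astrocytes, replicate 2 was the highest for 16 members, with 1857 for Irf7 where the other samples had 0 to 245. Summed levels of microglia markers were 22068, 100367, 124403 and 34068 in the 4 APP-GFP samples, where replicate 3 was the highest. Replicate 2 was the highest of its group in the summed markers of endothelial cells (60045, where the others had 22285 to 37803), mural cells (22304, against 4487 to 19338), perivascular macrophages (1212, against 364 to 766) and oligodendrocytes (19416, against 6382 to 6851). In WT-GFP astrocytes the sums of microglia markers were 14819 to 54205, with replicate 2 the highest and replicate 5 close to it at 53614, and replicate 2 stood above the others for endothelial (64626, against 19750 to 34175) and mural cells (34292, against 3874 to 11653). Microglia markers called higher in APP-GFP astrocytes were 2 of 20, Trem2 and Tyrobp, and the part of these cells in the members' levels was not tested.

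**Figure D3:**
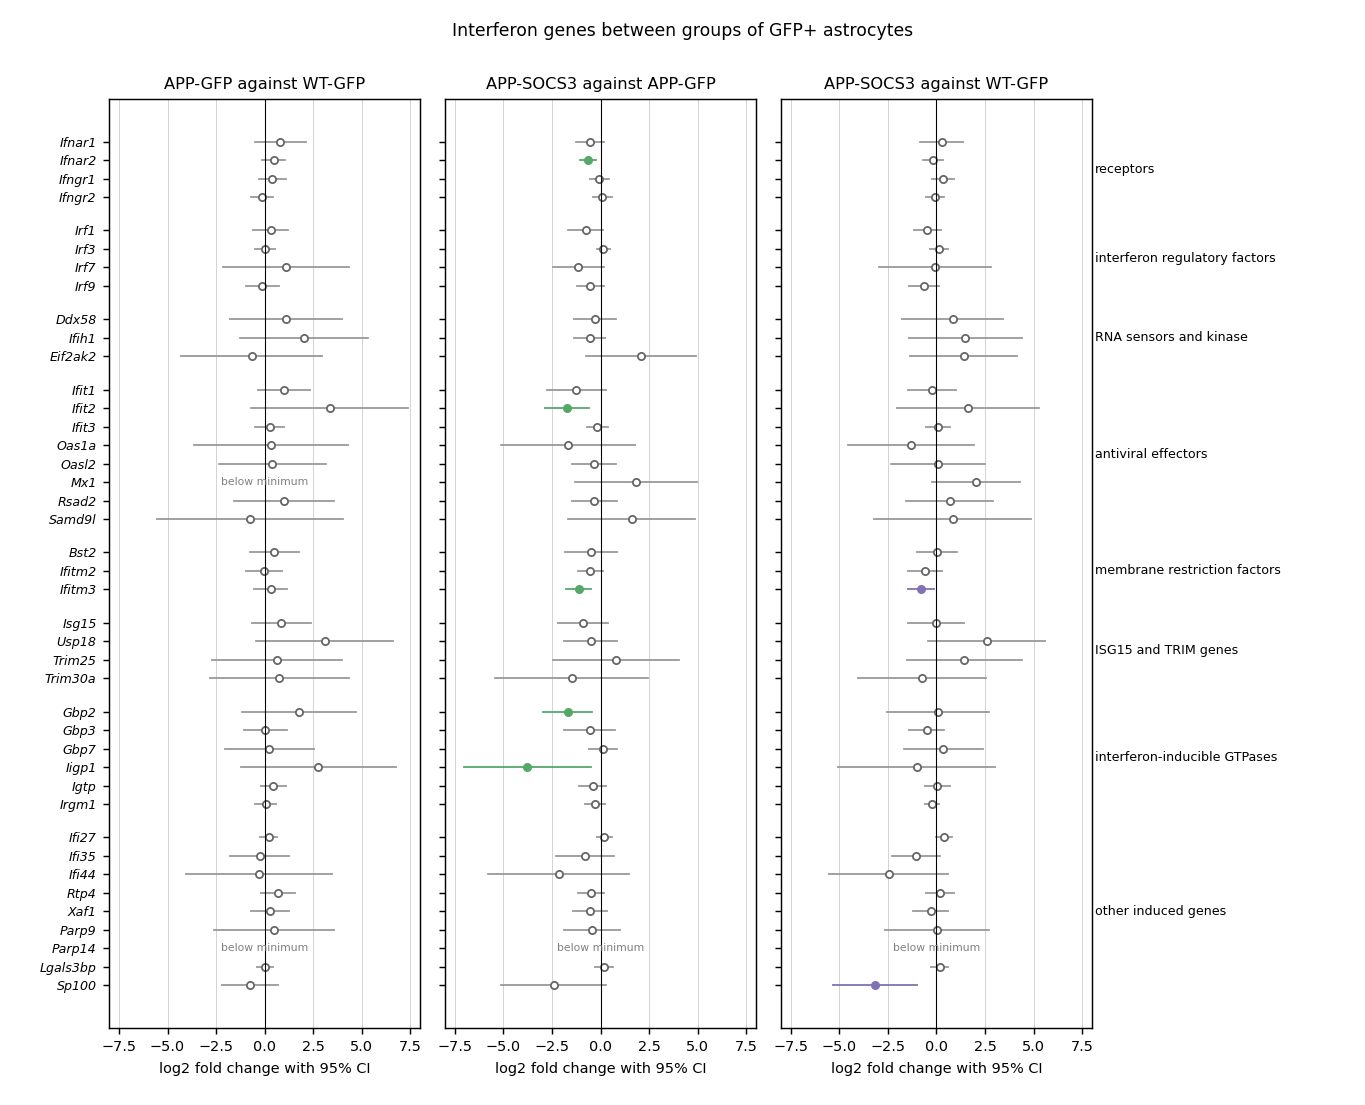
Log2 fold change of each interferon gene, with its 95% confidence interval from limma, between the groups of GFP+ astrocytes (APP-SOCS3 n = 5, APP-GFP n = 4, WT-GFP n = 7). Filled points are called genes, with none in APP-GFP against WT-GFP, 5 in APP-SOCS3 against APP-GFP and 2 in APP-SOCS3 against WT-GFP, all to the left of 0, and genes under the minimum level are marked.

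APP-SOCS3 astrocytes were compared with APP-GFP astrocytes to see how the interferon genes respond to SOCS3 in the amyloid model. Of 40 members tested, 5 were lower, namely Ifitm3, Ifnar2, Ifit2, Gbp2 and Iigp1, and 0 were higher. Over all 22844 genes tested, 3.37% were called lower and 2.33% higher (5.7% in either direction), and edgeR called 925 lower and 398 higher where limma called 769 and 532 and DESeq2 947 and 493. None of the 5 passed an adjusted p under 0.05 with limma, where 1 gene of all passed and was higher (Socs3, 0.00438%), and for no member did the groups separate fully (1.09% of genes were apart and lower, 0.924% apart and higher). The median log2 fold change was -0.52 over members and 0.08 over all genes, and 31 of 40 members were below 0.

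Ifitm3 (chr7:141009590-141010759 on mm10) had 1174, 3066, 3014 and 1805.5 in APP-GFP astrocytes and 1217, 897, 963, 1139.9 and 719.8 in APP-SOCS3 astrocytes. Of the 5 APP-SOCS3 samples, 4 were below all APP-GFP samples. The mean level was 43.6% of that in APP-GFP astrocytes, with a log2 fold change of -1.12 (95% CI -1.76 to -0.47, unadjusted p = 0.00278, limma adjusted p = 0.576). With DESeq2 the adjusted p of Ifitm3 was 0.0170.

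Ifnar2 (chr16:91372783-91405589), whose product is the signalling subunit of the type I receptor, had 1933, 2039, 2354 and 1379 in APP-GFP and 1192, 1204, 1409, 1215 and 1034 in APP-SOCS3 astrocytes. Here too 4 of 5 samples were below all APP-GFP samples, and the spread within APP-SOCS3 was small (SD 133 against 406). The log2 fold change was -0.65 (95% CI -1.05 to -0.25, unadjusted p = 0.00431, limma adjusted p = 0.577). The other receptor genes were not called, with -0.55 for Ifnar1, -0.07 for Ifngr1 and 0.09 for Ifngr2, whose interval was -0.39 to 0.56. An exon of Ifnar2 overlaps Gm21970 on the same strand.

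Ifit2 (chr19:34550694-34576534) had 249.8, 167, 146 and 223 in APP-GFP and 35.3, 42.8, 54.0, 151 and 49.2 in APP-SOCS3 astrocytes. APP-SOCS3 replicate 4 stood apart from the other 4 samples, which lay below the lowest APP-GFP sample. The log2 fold change was -1.73 (95% CI -2.84 to -0.62, unadjusted p = 0.00563, limma adjusted p = 0.603). Its partners Ifit1 and Ifit3 had -1.25 and -0.17 and were not called.

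Gbp2 (chr3:142620642-142638006) had 157, 1005, 299 and 261 in APP-GFP and 128, 168, 113, 116 and 40.4 in APP-SOCS3 astrocytes, again with 4 of 5 samples below all APP-GFP samples. Its log2 fold change was -1.69 (95% CI -2.95 to -0.42, unadjusted p = 0.0137, limma adjusted p = 0.647) and -1.16 without APP-GFP replicate 2. Iigp1 had 86.9, 490.5, 146 and 31.4 in APP-GFP and 99.4, 0, 12.0, 39.2 and 0 in APP-SOCS3 astrocytes. Only 3 of 5 samples of Iigp1 were below all APP-GFP samples, its exact permutation p was 0.0794 against 0.0317 for the other 4 genes, and its call (log2 fold change -3.77, limma adjusted p = 0.724) was kept in 10 of 21 alternatives. The calls of Ifit2, Ifitm3, Gbp2 and Ifnar2 were kept in 20, 19, 18 and 18 of them.

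**Figure D4:**
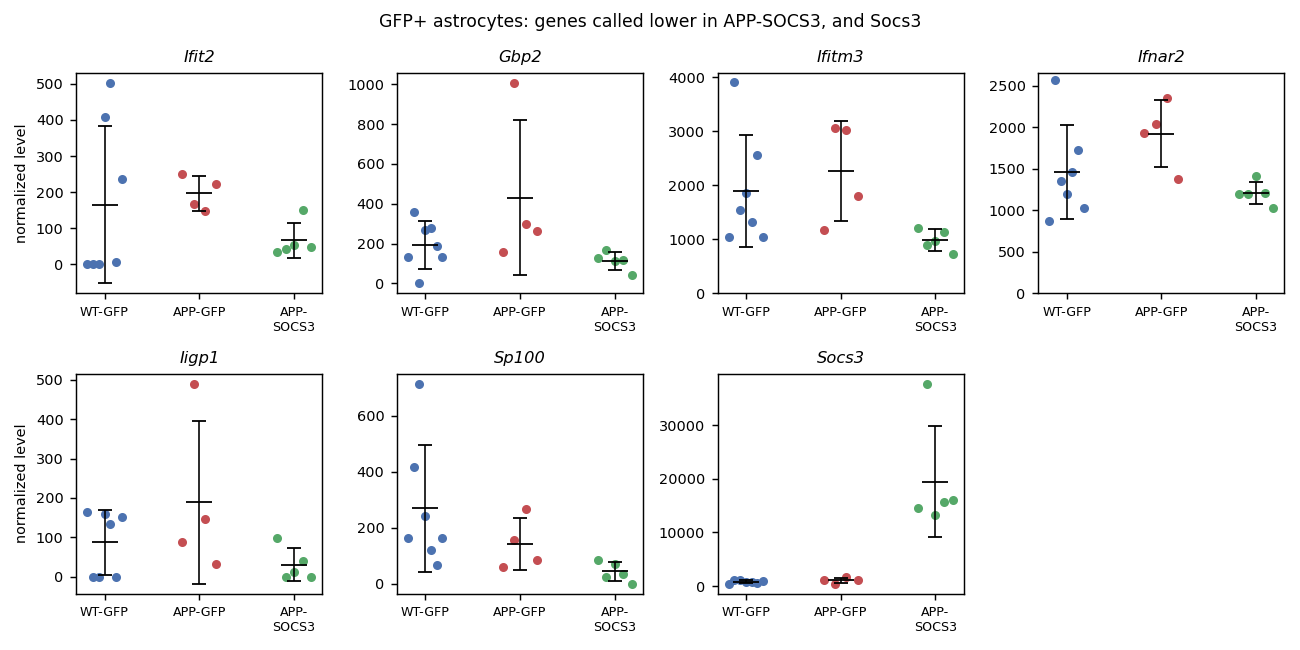
Normalized level in every sample of GFP+ astrocytes for Socs3 and the 6 interferon genes called lower in APP-SOCS3 astrocytes against APP-GFP or WT-GFP. Sp100 was called against WT-GFP only. There is 1 point per sample, with the mean as a long bar and 1 SD as whiskers (APP-SOCS3 n = 5, APP-GFP n = 4, WT-GFP n = 7). For Ifit2, Gbp2, Ifitm3 and Ifnar2, 4 of 5 APP-SOCS3 points lie below all APP-GFP points, and Socs3 lies far above in all 5 APP-SOCS3 samples.

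Members that were not called included genes of all other roles. Irf3 had 1854, 1581, 1935, 1632 and 2293 in APP-SOCS3 astrocytes, with a log2 fold change of 0.15 against APP-GFP (95% CI -0.19 to 0.49), and Ifi27 had 5739, 5070.1, 6049.8 and 7178 in replicates 1 to 4 and 4298 in replicate 5, with 0.19 (-0.18 to 0.57). Lgals3bp had 1489, 2144, 2124, 2973 and 1512, with 0.17 (-0.31 to 0.64). These 3 genes were above 0 in a comparison where most members were below it, and a 2-fold difference lies outside their intervals. Samd9l had 7.24, 0, 29.7 and 141 in APP-GFP and 137, 124, 24.0, 63.7 and 3.52 in APP-SOCS3 astrocytes, which overlapped.

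Markers of other cells were lower with SOCS3 as well. Microglia markers were lower in 19 of 20 cases (median log2 fold change -1.998), endothelial markers in 15 of 19 (-2.55), perivascular macrophage markers in 6 of 8, mural markers in 4 of 12, neuron markers in 4 of 13 and astrocyte markers in 1 of 15. Summed microglia markers were 10913 to 20823 in APP-SOCS3 and 22068 to 124403 in APP-GFP astrocytes, and summed endothelial markers 12308 to 24883 and 22285 to 60045. No microglia marker was at 0 in all samples of either group, and the endothelial marker Erg was at 0 in all 4 APP-GFP samples.

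With the mean log2 level of the microglia markers as a covariate, Ifitm3 had a log2 fold change of -0.18, Gbp2 -0.17, Ifnar2 -0.34 and Iigp1 -1.97, and none of these was called. Ifit2 had -2.52 (95% CI -4.23 to -0.81) and stayed called. The median over members was then 0.08. With the endothelial markers as covariate Ifit2 had -2.07 and stayed called, the other 4 were not called, and the median was -0.01. In both fits a further member, not called without a covariate, was also called lower. The lowest log2 fold change over members was -5.88 with the microglia and -6.21 with the endothelial covariate, against -3.77 without one. Since microglia sums did not overlap between the groups, covariate and group cannot be fully told apart in these 9 samples. Without APP-GFP replicate 2, the library with few genes, 6 members were lower (Gbp2, Ifit2, Ifitm3, Ifnar2, Irf9 and Oas1a), with 871 genes lower and 408 higher of 23153 tested. The median was then -0.30 over members and -0.04 over all genes.

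**Figure D5:**
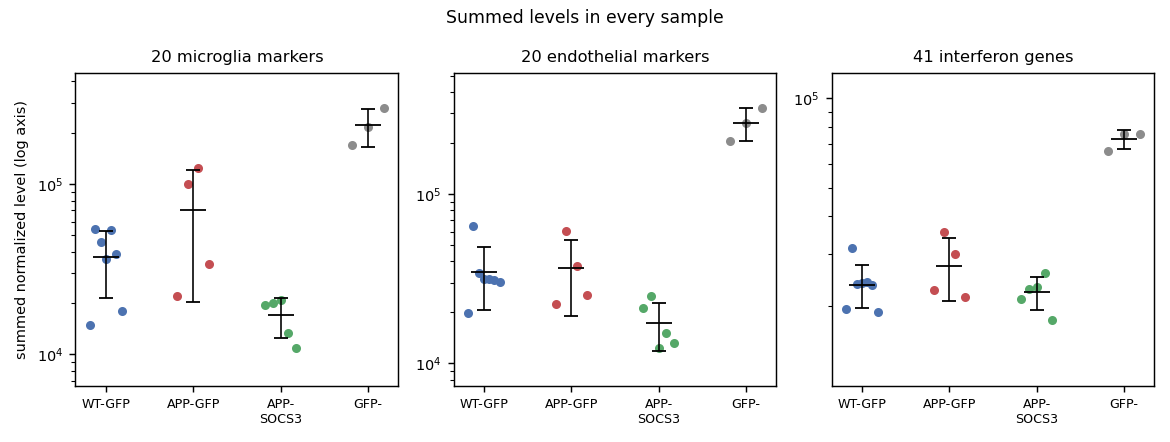
Summed normalized level, on log axes, of 20 microglia markers, 20 endothelial markers and the 41 interferon genes in every sample, with the mean as a long bar and 1 SD as whiskers (APP-SOCS3 n = 5, APP-GFP n = 4, WT-GFP n = 7, GFP- cells n = 3). Microglia sums of the APP-SOCS3 samples (10913 to 20823) lie below those of all APP-GFP samples (22068 to 124403).

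APP-SOCS3 astrocytes were also compared with WT-GFP astrocytes. This comparison shares its APP-SOCS3 samples with the one against APP-GFP and its WT-GFP samples with the one of APP-GFP against WT-GFP. Of 40 members tested 2 were lower, Sp100 and Ifitm3, and 0 were higher, while 2.02% of 22958 genes were called lower and 3.19% higher (5.21% in either direction). Neither passed an adjusted p under 0.05, which 0.00436% of genes passed as lower and 0.0261% as higher, and for no member did the groups separate fully (0.279% of genes were apart and lower, 0.287% apart and higher). The median over members was 0.02, against 0.19 over all genes. The members' median was -0.17 with edgeR and -0.23 with DESeq2, where the median of all genes was 0.02 and -0.003. It was 0.03 with equal totals and -0.11 with a pseudocount of 10. The direction of the members as a group thus depended on the method, and the reason was not tested. Over all genes, limma called 733 higher and 464 lower, edgeR 441 and 762, and DESeq2 340 and 824.

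Sp100 (chr1:85649988-85709995) ranged from 65.3 to 714 with a median of 165 in WT-GFP astrocytes and was at 85.0, 25.1, 72.01, 36.3 and 0 in APP-SOCS3 astrocytes. It was at 60.6, 157, 266 and 83.7 in APP-GFP astrocytes. Of the 5 APP-SOCS3 samples, 3 were below all WT-GFP samples, and the log2 fold change was -3.18 (95% CI -5.33 to -1.02, exact permutation p = 0.00758, limma adjusted p = 0.567). It ranged from -3.66 to -2.05 when 1 sample was left out, with -2.05 without APP-SOCS3 replicate 5, the sample at 0. Ifitm3 had -0.81 against WT-GFP (95% CI -1.48 to -0.13, exact permutation p = 0.0278, limma adjusted p = 0.782), with 3 of 5 samples below all WT-GFP samples. The calls of Sp100 and Ifitm3 were kept in 22 and 21 of 24 alternatives.

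Ifit2 and Gbp2, which were lower than in APP-GFP astrocytes, had log2 fold changes of 1.62 and 0.08 against WT-GFP, and Iigp1 had -1.01. WT-GFP samples at 0 enter these values, and the signs of Gbp2 and Ifit2 were not stable. Gbp2 had -0.73 with edgeR, -0.78 with DESeq2, -1.02 without WT-GFP replicate 3, the only sample at 0, and -1.001 without the 4 libraries with few genes. Ifit2 had -1.30 with edgeR, -1.31 with DESeq2 and -1.23 without these libraries. Without those libraries 6 members were called lower (Gbp2, Ifi44, Ifitm3, Irf9, Oas1a and Sp100), and calls over all genes also moved, to 1239 lower and 410 higher of 22981 tested. The median was then -0.26 over members and -0.0075 over all genes. Microglia markers were lower in 13 of 20 cases and endothelial markers in 14 of 20. With the microglia covariate 0 members were called. With the endothelial covariate Ifi27 and Usp18 were called higher and Trim30a lower.

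Other genes of the pathway were counted by lists. Between GFP+ and GFP- cells 33.5% of all genes were called lower and 9.25% higher. With SOCS3 these shares were 3.37% and 2.33% against APP-GFP, and 2.02% and 3.19% against WT-GFP. Of 21 interferon genes themselves 1 was above the minimum level in any comparison. This was Ifng (interferon gamma), with a mean level of 0.843 in WT-GFP astrocytes and 66.4 in GFP- cells, and it is named because it was the only one. Of 6 signal transducers, 4 were lower in GFP+ than in GFP- cells, 0 were called in APP-GFP against WT-GFP, and 1, Stat3, was lower with SOCS3 against APP-GFP (log2 fold change -0.80, limma unadjusted p = 0.00942) and against WT-GFP (-0.63). With the microglia covariate Stat3 had -0.37 and -0.54 and was not called. Of 6 inhibitors, 4 were lower in GFP+ than in GFP- cells, and Socs3 was higher with SOCS3 against both groups (4.20 and 4.49, limma adjusted p = 0.00735 and 8.3e-06). Ptpn6 (SHP-1, a phosphatase that acts on JAK kinases) was lower against APP-GFP (-1.47). The 5 other interferon regulatory factors were all lower in GFP+ than in GFP- cells.

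Among 13 nucleic acid sensors and adaptors tested between GFP+ and GFP- cells, 8 were lower (33.5% of all genes). Of these 13, 1 was higher (9.25% of all genes), Tlr3, with a log2 fold change of 1.89. Tlr3, the endosomal receptor for double-stranded RNA, had 1244 to 4492 in WT-GFP astrocytes and 958, 360 and 678 in GFP- cells. These do not overlap, where 7.57% of all genes were apart and higher. Tlr3 is named after its values were seen. It was also called higher in APP-SOCS3 against APP-GFP astrocytes (0.68), with Myd88, an adaptor of Toll-like receptors, lower (-0.80, and 0.07 with the microglia covariate). With the microglia or the endothelial covariate 0 of 11 genes of this list were called in that comparison, Tlr3 included. Myd88 was lower in APP-SOCS3 against WT-GFP astrocytes as well, with mean levels of 189.9 and 432. There the groups did not overlap, where 0.279% of all genes were apart and lower. Against WT-GFP, Myd88 had -0.67 with the microglia and -0.42 with the endothelial covariate, and was called with neither.

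A list of 62 further interferon-induced genes was counted in the same way. Between GFP+ and GFP- cells 43 of 60 tested were lower and 0 were higher, with a median of -3.88, where 33.5% of all genes were lower and microglia and endothelial markers were lower too. In APP-GFP against WT-GFP astrocytes 0 of 48 were called, with a median of 0.67. In APP-SOCS3 against APP-GFP astrocytes 9 of 48 were lower and 0 were higher, with a median of -0.75, where 3.37% of all genes were lower and 2.33% higher. Against WT-GFP 5 of 46 were lower and 0 were higher, with a median of -0.07, where 2.02% of all genes were lower and 3.19% higher. Markers of microglia and endothelial cells were lower in both comparisons, as given above. With the microglia covariate 0 of 48 were called against APP-GFP, and 2 of 46 were lower and 2 higher against WT-GFP. With the endothelial covariate 1 was lower and 1 higher against APP-GFP, and 0 were lower and 2 higher against WT-GFP. Without the 4 libraries with few genes 10 of 49 were lower against APP-GFP and 11 of 47 against WT-GFP. Calls over all genes moved too, to 871 lower of 23153 tested against APP-GFP and 1239 lower of 22981 against WT-GFP. The 9 lower than in APP-GFP astrocytes included Gbp4 (-4.02), Tgtp2 (-4.69), Ly6e (-2.02), Uba7 (-1.94) and Trim14, and the 5 included Ly6e (-1.84), Tgtp2 (-4.15), Uba7 (-1.42) and Slfn2 (-3.23).

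Tgtp2, a GTPase of the same family as Iigp1, had 258, 1508, 538 and 269 in APP-GFP astrocytes and 99.4, 4.65, 93.0, 45.1 and 0 in APP-SOCS3 astrocytes. In WT-GFP astrocytes it had 137 to 711, and APP-SOCS3 samples overlapped with neither group. Of all genes, 1.09% were apart and lower against APP-GFP and 0.279% against WT-GFP. Tgtp1 and Tgtp2 are near-identical copies, so how their reads were divided is uncertain. Ly6e, a membrane protein, had 2158, 9067, 7186 and 1904 in APP-GFP and 1662, 999, 1328, 789 and 562 in APP-SOCS3 astrocytes, which did not overlap, and Uba7, the enzyme that activates ISG15, had 136, 791, 399 and 318 and 91.6, 142, 65.0, 113 and 56.2, which did. Trim14 was at 0 in all 5 APP-SOCS3 samples, against a mean of 15.3 in APP-GFP astrocytes, where 3 of 4 samples were above 0. The groups thus overlapped, for a gene near the floor. With 3 reads per library as the limit, the mean level was at least 5.20-fold lower. None of these decreases passed an adjusted p under 0.05 with limma. With the microglia covariate the log2 fold changes against APP-GFP were -2.49 for Tgtp2, -0.25 for Ly6e and -0.59 for Uba7, and none was called. Against WT-GFP, Tgtp2 (-3.11) and Ly6e (-0.94) stayed called lower with this covariate, and Uba7 (-1.23) did not. With the endothelial covariate they had -1.82, -0.70 and -1.18 against WT-GFP, and none was called.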

How the data were processed

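Groups and replicate numbers are those of the sample labels. The authors amplified cDNA by PCR without molecular identifiers, so limits from read counts cover counting error only. They sequenced paired reads, mapped them to mm10 with STAR 2.4.0, counted reads on constitutive regions of FAST DB genes (use of strand not stated) and normalized with DESeq2. In the deposited table each value is a normalized signal, a gene's count divided by the size factor of its sample, and 100% of them are whole reads (within 0.01) after division by the value of 1 read. Of 60567 entries, 34671 carry no symbol. Genes whose mean level reached 10 in 1 of the groups compared were fitted on log2(level + 1) with limma 3.58.1 (mean-variance trend, those groups only, R 4.3.3). This is the scale of fold changes, other than those of edgeR 4.0.16 and DESeq2 1.42.0 on whole reads. Adjusted p values (Benjamini-Hochberg) cover all genes tested. Exact permutation tests were two-sided, on mean log2 levels of single genes, and can reach 0.0167, 0.00606, 0.0159 and 0.00253 in the 4 comparisons in the order of the report. Calls used the study's thresholds (p 0.05, unadjusted, and 1.5-fold).

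Members, lists of markers and pathway genes were chosen with earlier results of these data known. All members are covered. Sample values are given for members called between GFP+ groups, for the 3 with the highest and the 3 with the lowest fold change between GFP+ and GFP- cells, for Socs3, and for pathway genes among the 10 called with the smallest p between GFP+ groups. Other values were chosen after they were seen. Some items are not reported here. Alternatives were pseudocounts of 0.1 and 10, no minimum or a minimum of 100, equal totals, all 19 samples in one fit, edgeR, DESeq2, adjusted p, the replicate number as a block, marker covariates and leaving out each sample. Leaving out the 4 libraries with under 20000 detected genes was added after seeing the data. All members match GENCODE M21 (same build) at their position. Exons of 16 overlap another gene, and in 8 cases it is antisense. On simulated data in which 100 genes changed 2-fold and 100 changed 4-fold, limma called 51%, 61%, 56% and 72% of the first and 100%, 100%, 99% and 100% of the second in the 4 comparisons. The simulation gave all genes the same spread setting, changed only genes well above the minimum level and held no libraries with few genes. In WT-GFP astrocytes the members' median coefficient of variation was 63.6%, and 18 members were at 0 in a sample. These rates therefore do not carry over to such members.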

Additional observations from a re-analysis of the deposited data

Results flagged for a closer look

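In groups of 4 to 10 samples, the highest or lowest value of a gene was set against the others by the size of its gap, over the 41 members and Socs3. Of 125 groups of values, 18 held a sample standing apart, and chance gives about 1 in 20 where values are normally distributed. Gaps were taken on normalized levels without a log, and whether these are normally distributed was not tested. All 18 were the highest value of their group, and they share samples, so they are not independent. In APP-SOCS3 replicate 2 these were Ifnar1 (1109), Ifngr1 (1863), Ifi44 (27.0), Parp14 (23.3) and Socs3 (37750.1). In APP-SOCS3 replicate 4 they were Irf1 (662), Ifit2 (151) and Rsad2 (103), and in replicate 3 Mx1 (62.0). In WT-GFP replicate 2 they were Irf7 (1857), Ifitm2 (1574) and Xaf1 (690), in replicate 3 Eif2ak2 (121) and Samd9l (853), and in replicate 6 Trim30a (108). In APP-GFP replicate 2 they were Ifit1 (2190) and Gbp2 (1005), and in replicate 1 Mx1 (0.905), which is 1 read.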

How the results depend on the processing

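Calls between groups of GFP+ astrocytes rest on 4 to 7 samples, on an unadjusted p and on libraries that differ in the number of detected genes and in markers of other cells. Between GFP+ and GFP- cells 36 members were called, and 27 to 39 when 1 sample was left out. In APP-GFP against WT-GFP astrocytes the main count of 0 became 1 with DESeq2 or the endothelial covariate, 2 with all 19 samples in one fit, and 0 to 1 when 1 sample was left out (1 without WT-GFP replicate 2, 4, 5 or 6). In APP-SOCS3 against APP-GFP the count of 5 became 0 with the adjusted p, 3 with all 19 samples, 2 with either covariate, and 4 to 8 without 1 sample (8 without APP-GFP replicate 4). In APP-SOCS3 against WT-GFP the count of 2 became 0 with the adjusted p or the microglia covariate, 4 with DESeq2, 6 without the 4 libraries with few genes, and 2 to 5 without 1 sample (5 without WT-GFP replicate 2, 4 without APP-SOCS3 replicate 2). The log2 fold change of Gbp2 in this comparison, 0.08, ranged from -1.02 (without WT-GFP replicate 3) to 0.41 when 1 sample was left out, and was -1.001 without those 4 libraries. Of 527 values of single genes under alternatives, 473 stayed on their side of the threshold (uncalled values changed sign in some), 42 lost the call, 10 gained it in the same direction, and 2, those of Gbp2, became a call in the opposite direction. Over all genes, a minimum level of 100 left 2244 higher and 4465 lower in the first comparison, 53 and 70 in the second, 159 and 491 in the third and 117 and 324 in the fourth. In the second, no minimum gave 680 and 137, all 19 samples 649 and 342 and the microglia covariate 265 and 67, and in the third the microglia covariate gave 203 and 322 and the endothelial covariate 180 and 340. The cause was not tested, except that an adjusted p is stricter by construction.

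With the replicate number as a block, counts in the order of the report were 30, 4 (Ifit2, Rtp4 and Usp18 higher, Sp100 lower), 4 and 3. Over all genes this block gave 1993 higher and 9006 lower of 26709 in the first comparison and 584 and 79 of 22969 in the second. In the third it gave 472 and 660 of 22844, and in the fourth 1067 and 366 of 22958. Correlations of same-numbered samples were -0.08 to 0.15 and not over 0.1 in every pair of any comparison. In APP-GFP against WT-GFP astrocytes, APP-GFP replicates 1, 2 and 4 had rank 1 for the WT-GFP sample of their number, and replicate 3 had rank 2. Ranks in the other comparisons were 1 to 6. The labels do not say whether same-numbered samples were prepared together, and these correlations cannot tell.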
